A study of Mus musculus with 25 samples.

Results

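The genes described are 9 mouse complement genes: the 3 chains of C1q (C1qa, C1qb and C1qc), the components C4b, C3 and Cfb, the receptors C3ar1 and C5ar1, and the inhibitor gene Serping1. They were taken by symbol from the table of sorted cells, which lists 43693 genes, and joined to the other tables by Ensembl gene identifier. All 9 were listed in the tables of all 25 libraries, though Cfb had 0 counts in some. The study sequenced total RNA of sorted spinal cord cells, whole injured spinal cord and cultured brain astrocytes, and its title names astrocytes after spinal cord injury and the long non-coding RNA Zeb2os.

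The sorted cells came from mice of genotype GFAP-Cre-/+:R26-tdT-/+, in which a Gfap-driven Cre recombinase switches on the red reporter tdTomato, so that a cell stays red if it or a precursor once expressed the recombinase. The injured groups were injured at thoracic level T9 by a contusion with a force of 60 kdyn and were taken after 7 days (3 libraries), 1 month (3 libraries) or 3 months (2 libraries, replicates 1 and 3). The sham group (3 libraries) had only the bone over the cord removed and was taken at 7 days, so the groups at 1 and 3 months also differed from sham in time after surgery. Whole tissue from the injury epicentre of C57BL/6 mice was taken 1 month and 3 months after the same contusion (3 libraries each). Each sorted or tissue library pooled 3 mice, and no ages of the mice are given in the labels. Cultured astrocytes came from C57BL/6 pups of postnatal day 4 to 7. They were infected with a control lentivirus or one against Zeb2os (2 libraries each), with puromycin (1 µg/ml) from 24 h after infection, or with a control lentivirus or one against Zeb2 (2 libraries each), with puromycin from 48 h. The genotype field calls the knockdown cultures Zeb2os -/- and Zeb2 -/-, while the protocols describe lentiviral knockdown. Nothing in the labels says that the 2 libraries of a culture group were separate cultures, so their p-values rest on a spread between libraries that could be technical.

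Complement is a cascade of plasma and tissue proteins that tags cells and debris. C1q binds a target and starts the classical pathway, in which C4 is cleaved and C3 is then deposited, and factor B, the product of Cfb, amplifies the deposition of C3 through the alternative pathway. The released fragments of C3 and C5 act on the receptors C3aR and C5aR1, and C1 inhibitor, the product of Serping1, blocks the proteases that C1q carries. In the central nervous system C1q is made mainly by microglia and macrophages, and C3 and C4 are also made by astrocytes and other cells, with roles known in the clearing of debris and the removal of synapses.

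All 9 genes lie on the minus strand of GRCm38 in the GENCODE annotation and are protein coding. C1qb (chr4:136880129-136886187), C1qc (chr4:136889804-136893065) and C1qa (chr4:136895917-136898803) lie side by side in 18675 bases, with gaps of 3616 and 2851 bases between them. On chromosome 17 lie C4b (chr17:34728380-34743882), Cfb (chr17:34856374-34862518) and C3 (chr17:57203970-57228136). C3ar1 is at chr6:122847138-122856161, C5ar1 at chr7:16246743-16259540 and Serping1 at chr2:84765387-84775444.

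The upstream sequences of the neighbouring C1qb and C1qc are shown because these genes moved together across the sorted libraries (below), and that of C3 because it departed from them between sorted cells and tissue. They are from RefSeq on GRCm38.p6, whose promoter table held 5 of the 9 genes (C1qb, C1qc, C3, C3ar1 and C5ar1), and are given 5′ to 3′ on the minus strand. For C1qb and C3 the 250 bases before the RefSeq start are given (chr4:136886201-136886450 and chr17:57228137-57228386). For C1qc only the 99 bases of that window that lie outside the GENCODE gene are given (chr4:136893066-136893164). Capitals mark matches to GAGGAA, the core of sites of the myeloid factor PU.1, in C1qb and, read on the opposite strand, in C1qc, and a match to TTGCNNAA, a C/EBP motif, in C3.
C1qb: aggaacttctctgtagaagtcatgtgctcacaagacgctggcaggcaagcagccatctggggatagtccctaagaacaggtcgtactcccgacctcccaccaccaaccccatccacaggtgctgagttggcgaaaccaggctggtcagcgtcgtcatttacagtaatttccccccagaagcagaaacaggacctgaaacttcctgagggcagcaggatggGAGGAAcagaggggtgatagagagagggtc
C1qc: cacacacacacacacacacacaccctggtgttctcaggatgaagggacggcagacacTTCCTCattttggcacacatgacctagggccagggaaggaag
C3: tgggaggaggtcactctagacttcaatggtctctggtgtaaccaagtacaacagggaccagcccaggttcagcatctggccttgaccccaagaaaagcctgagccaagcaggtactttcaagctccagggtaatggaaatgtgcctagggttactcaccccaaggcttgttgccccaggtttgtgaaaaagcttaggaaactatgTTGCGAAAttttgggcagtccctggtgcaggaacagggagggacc
The C1qb match begins at position -30 and the C1qc match at -193, counted from the RefSeq start. GAGGAA was found on either strand in 28.3% of 32851 promoters of 300 bases in the same table. TTGCNNAA, at -45 in C3, was found in 10.8% of them. TTCNNNGAA (GAS, a STAT motif; 8.3% of promoters) and GGANTTTCC (NF-kB; 1.25%) had no match in the 5 promoters, and GAAANNGAA (ISRE; 8.56%) had 1, in C5ar1 at -66. No match overlapped a match to another of these motifs. A match is a description of the letters, not a site of binding.

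Total counts ran from 15712423 to 50211071 in the sorted libraries, from 15423131 to 27138885 in tissue and from 29026654 to 158099842 in the cultures. Expression is given as CPM (counts-per-million) after scaling by edgeR's trimmed mean of M values (TMM), and log2 changes with their standard error (SE). A gene is said to have risen or fallen when edgeR's quasi-likelihood test, fitted on all genes of a table, gave a Benjamini-Hochberg adjusted p under 0.05. By their markers the sorted libraries held transcripts of cells other than astrocytes. Markers of oligodendrocyte precursors (6 genes) summed to 6415 to 7762 CPM in sham. After injury they summed to 6327 to 8144 CPM (7 days), 7855 to 8268 CPM (1 month) and 5084 to 6524 CPM (3 months). In the injured groups these sums were above those of the astrocyte markers. In whole tissue they were 652 to 662 CPM at 1 month and 510 to 549 CPM at 3 months. The summed level of 12 astrocyte markers was 4919 to 6507 CPM in sham and 1324 to 1492 CPM at 3 months, against 12030 to 15620 CPM in whole tissue, and Gfap itself was 166 to 354 CPM in sham libraries. The summed level of 10 microglia markers was 492 to 2015 CPM in sham. After injury it was 2533 to 3196 CPM (7 days), 2030 to 3240 CPM (1 month) and 4370 to 5537 CPM (3 months). That of 10 monocyte and macrophage markers rose from 45.1 to 128 CPM in sham to 2339 to 4257, 1476 to 2175 and 4387 to 5207 CPM at the same times. No microglia marker was at 0 in any sorted or tissue library. Sham replicate 3 stood apart, with fibroblast markers at 594 CPM against 125 to 136 CPM in the other sham libraries and Schwann cell markers at 411 CPM against 6.64 to 24.6 CPM. The 8 fibroblast markers were above all sham libraries after injury, at 3498 to 3656 CPM (7 days), 1960 to 2168 CPM (1 month) and 1526 to 1603 CPM (3 months). At 7 days against sham 7 of these 8 rose, as did all 10 endothelial markers. The part of these markers in the complement changes was not tested. Zeb2 was 147 and 134 CPM in its control cultures and 23.2 and 16.2 CPM in its knockdown cultures. Zeb2os was 5.82 and 3.80 CPM in its controls and 3.14 and 4.32 CPM in the libraries labelled Zeb2os knockdown (log2 change -0.36 ± 0.35, adjusted p = 0.735), so these overlapped and the counts do not show the knockdown.

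The C1q genes rose in sorted cells 7 days after injury and were at their highest level at 3 months. C1qa was 190, 51.8 and 53.8 CPM in sham replicates 1 to 3, 542, 727 and 643 CPM at 7 days, 632, 877 and 1037 CPM at 1 month, and 1533 and 2379 CPM at 3 months. C1qb was 232, 49.3 and 36.3 CPM in sham, 553, 742 and 660 CPM at 7 days, 530, 758 and 867 CPM at 1 month, and 1298 and 1778 CPM at 3 months. C1qc was 194, 43.9 and 24.9 CPM in sham, 501, 663 and 583 CPM at 7 days, 480, 618 and 743 CPM at 1 month, and 1013 and 1494 CPM at 3 months. For each chain every injured library was above every sham library, the libraries at 7 days and 1 month overlapped, and both libraries at 3 months were above all others. Sham replicate 1 was the highest sham library for all 3 chains, and it also had the highest microglia marker sum among the sham libraries (2015 CPM). The log2 changes at 7 days against sham were 2.69 ± 0.41 for C1qa (adjusted p = 0.000273), 2.62 ± 0.51 for C1qb (0.00168) and 2.73 ± 0.53 for C1qc (0.00165). Against the same sham libraries they were 3.11 ± 0.42, 2.76 ± 0.51 and 2.81 ± 0.53 at 1 month and 4.31 ± 0.46, 3.86 ± 0.56 and 3.84 ± 0.57 at 3 months, with adjusted p from 1.63e-05 to 0.00226. Without sham replicate 1 the changes at 7 days were 3.59, 3.93 and 4.07.

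**Figure D1:**
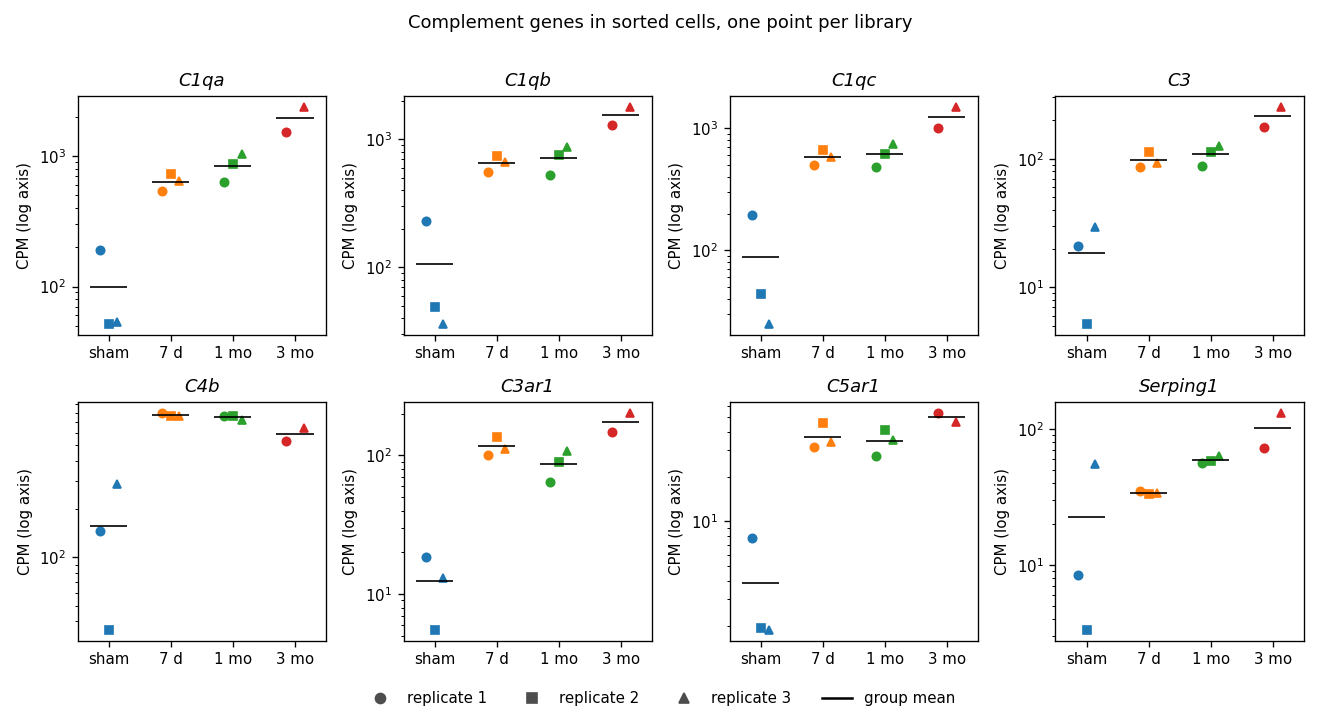
Level of 8 complement genes in sorted cells, in CPM on log axes whose range differs between panels. Each point is a library, the marker shape gives the replicate number and the bar is the group mean. Every injured library lies above every sham library except for Serping1, where sham replicate 3 (55.6 CPM) lies among the injured libraries.

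C4b, which encodes the classical pathway component cleaved after C1q has bound, rose against sham at all 3 times. It was 146, 35.4 and 287 CPM in sham, 793, 764 and 758 CPM at 7 days, 760, 761 and 723 CPM at 1 month, and 529 and 642 CPM at 3 months. The injured libraries were all above the sham libraries, and both libraries at 3 months were below all those at 7 days and 1 month. The log2 change against sham was 2.31 ± 0.46 at 7 days (adjusted p = 0.00208), 2.26 ± 0.46 at 1 month (0.00376) and 1.91 ± 0.48 at 3 months (0.0167). The call at 3 months was lost without replicate 3 of that group (adjusted p = 0.1) and in a fit of these 2 groups alone (0.142), and the change at 7 days was 3.09 without sham replicate 3. C4b shares 34.6% of its 50-base stretches with its neighbouring copy C4a, a processed transcript in GENCODE, so some reads could have been assigned to either. C4a was low, at 0.94 to 4.42 CPM in sorted libraries, and adding its counts to C4b changed no call of C4b.

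C3, the component on which all pathways converge, rose at all 3 times against sham. It was 20.9, 5.2 and 29.5 CPM in sham, 86.3, 113 and 92.5 CPM at 7 days, 87.9, 113 and 125 CPM at 1 month, and 177 and 252 CPM at 3 months. The groups at 7 days and 1 month overlapped, and those at 3 months were above all others. The log2 change against sham was 2.40 ± 0.41 at 7 days (adjusted p = 0.000668), 2.56 ± 0.41 at 1 month (0.000706) and 3.54 ± 0.45 at 3 months (7.88e-05).

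The level of Cfb could not be read from these counts. It had at most 1 count in each sham library, 0, 1 and 19 counts at 7 days, 13, 4 and 0 at 1 month, 0 in both libraries at 3 months, 2 to 7 in tissue and 0 to 2 in the cultures. In the 3-month sorted libraries a count of 0 allows up to 0.083 and 0.143 CPM (3 counts of the scaled total, counting error only). Of its 2825 exonic bases, 2246 (79.5%) also belong to the read-through gene Gm20547 on the same strand, which joins C2 to Cfb and had 0 counts in every library. How the authors counted reads that fall in 2 genes is not given in the sources used here. Cfb passed the filter on low counts in the sorted table only and was called in no comparison. No fold is given for it.

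The 2 receptors of the released fragments rose together. C3ar1, the receptor of the C3 fragment C3a, was 18.5, 5.54 and 13.1 CPM in sham, 101, 136 and 111 CPM at 7 days, 64.4, 89.8 and 108 CPM at 1 month, and 147 and 201 CPM at 3 months. C5ar1, a receptor of the C5 fragment C5a, was 7.74, 1.91 and 1.88 CPM in sham, 31.7, 45.8 and 34.0 CPM at 7 days, 27.3, 41.0 and 35.2 CPM at 1 month, and 53.3 and 46.5 CPM at 3 months. Neither gene had a sham library within the range of the injured ones. C3ar1 had a log2 change of 3.23 ± 0.34 at 7 days (adjusted p = 1.34e-05), 2.82 ± 0.34 at 1 month (6.45e-05) and 3.81 ± 0.37 at 3 months (6.66e-06). C5ar1 had 3.25 ± 0.44, 3.14 ± 0.43 and 3.67 ± 0.46 at the same times, with adjusted p from 7.62e-05 to 0.000227, and 4.29 at 7 days without sham replicate 1. Hc, the gene of C5 from which the ligand of C5ar1 is cut, went the other way: it was 19.2 ± 6.12 CPM in sham (SD, n = 3) and 4.74 ± 0.79 CPM at 7 days (n = 3), a log2 change of -2.02 ± 0.56 (adjusted p = 0.0194).

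Serping1, the inhibitor gene, did not pass the test against sham at any time. It was 8.45, 3.32 and 55.6 CPM in sham, 35.1, 33.3 and 33.6 CPM at 7 days, 56.8, 58.8 and 63.2 CPM at 1 month, and 72.7 and 131 CPM at 3 months. The injured groups did not overlap each other, while sham replicate 3 lay above all libraries at 7 days. The log2 changes were 0.62 ± 0.63 (adjusted p = 0.583), 1.43 ± 0.63 (0.175) and 2.2 ± 0.69 (0.0505). Without sham replicate 3 they were 2.53 (adjusted p = 0.000116), 3.34 (1.8e-05) and 4.11 (4.03e-06), all past the threshold. It was also called at all 3 times with no filter on low counts, where the adjusted p at 7 days was 0.0228. The part of the fibroblast and Schwann cell markers of that library in its Serping1 level was not tested.

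In all, 7 of the 9 genes tested rose at 7 days against sham, where 9.87% of 24286 genes rose and 18.3% were called in either direction. The same 7 rose at 1 month (6.23% of genes higher, 12.1% in either direction) and at 3 months (6.78% and 11.7%), and no member fell. These 3 comparisons share the sham libraries. The median log2 change of the 9 genes was 2.69, 2.81 and 3.67, beside -0.06, -0.02 and -0.10 over all genes tested. These medians include Cfb, whose level could not be read. In bulk RNA a change in the share of cells of a type and a change in RNA per cell cannot be told apart.

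**Figure D2:**
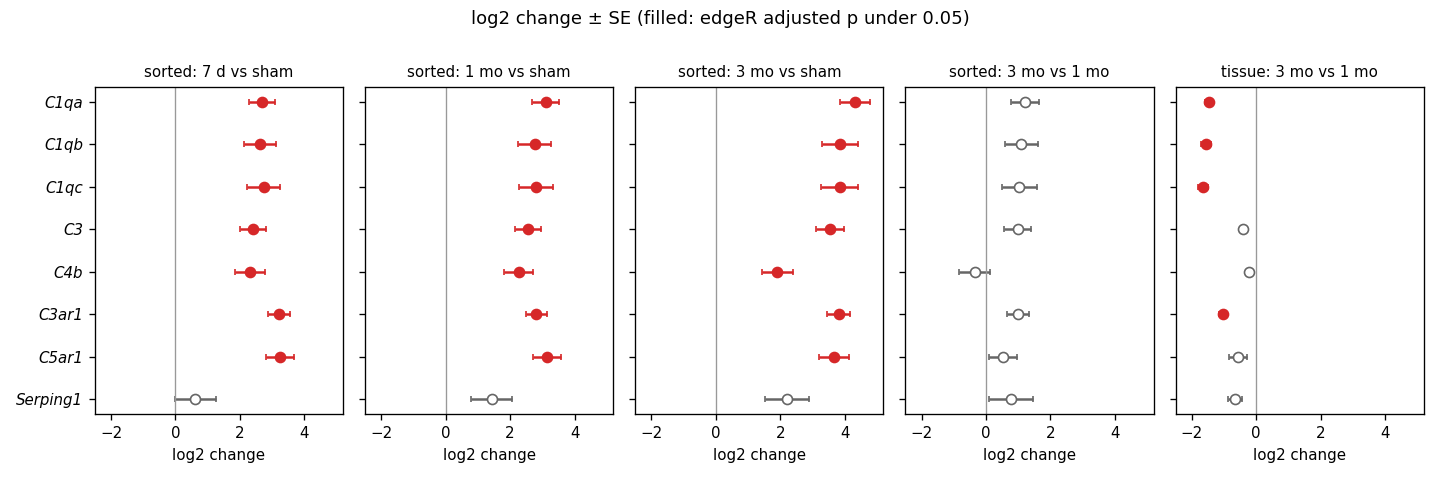
log2 change with its SE (horizontal bar) of 8 complement genes in 5 comparisons, with filled points for an edgeR adjusted p under 0.05. The 3 C1q genes and C3ar1 lie right of 0 in the sorted cells at 3 months against 1 month without passing the test, and left of 0 with a filled point in the tissue.

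Between injured groups of sorted cells few members passed the test. None of the 9 was called at 1 month against 7 days (2.61% of genes called, no member with an unadjusted p under 0.05, and none called by DESeq2). Serping1 was called higher there in a fit of these 2 groups alone (0.83, adjusted p = 0.000395), which called 3560 genes against 633 in the main fit. It was also called with no filter on low counts (0.80, adjusted p = 0.00791). The only call at 3 months against 7 days, where 6.05% of genes were called, was C1qa (log2 change 1.62 ± 0.43, adjusted p = 0.0351). That call was lost on leaving out any of the 5 libraries (adjusted p from 0.0533 to 0.283). At 3 months against 1 month no member was called, by edgeR or by DESeq2 (0.387% of genes called by edgeR), and 3 members had an unadjusted p under 0.05: C1qa (1.20 ± 0.42), C3 (0.98 ± 0.43) and C3ar1 (0.99 ± 0.34). A fit of these 2 groups alone called 6 members there. Over all genes it called 1277, against 94 in the main fit, and the cause of this difference was not tested. C4b was the 1 of the 8 readable members whose value was below 0 at 3 months against both 7 days (-0.40 ± 0.49) and 1 month (-0.35 ± 0.49), without passing the test. In a fit of the 3-month and 7-day groups alone C4b was called lower (-0.45, adjusted p = 0.0385). That fit called C1qb (1.18, adjusted p = 0.0013), C1qc (1.05, 0.00338), C3 (1.08, 0.00307) and Serping1 (1.52, 0.0013) higher, and C1qa kept its call. Over all genes it called 3763, against 1470 in the main fit.

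Set beside the summed microglia markers of the same library, C1qa differed between groups. It was 7.73 to 10.9 CPM per 100 CPM of the 10 microglia markers in sham, 21.4 to 22.7 after 7 days, 31.1 to 32.4 after 1 month and 35.1 to 43.0 after 3 months. The ranges of these 4 groups did not overlap. Per 100 CPM of the macrophage markers, which were scarce in sham, C1qa was 59.2 to 148 in sham, 17.1 to 23.2 after 7 days, 42.8 to 47.7 after 1 month and 34.9 to 45.7 after 3 months, so that with these markers the order of sham and injured groups was turned round. Of the microglia markers themselves 4 of 10 rose and 1 fell at 7 days, and at 3 months 5 rose and none fell. Cx3cr1, a fractalkine receptor of microglia, rose by 1.25 ± 0.39 at 7 days (adjusted p = 0.0344), while Tmem119, a marker of resident microglia, had a log2 change of 0.23 ± 0.47 (0.808). Of the 10 macrophage markers 8 rose at 7 days and 8 at 3 months. Their part in the complement changes was not tested.

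The 3 C1q chains did not keep a fixed ratio. C1qc per 100 CPM of C1qa was 46.3 to 102 in sham, 90.7 to 92.4 after 7 days, 70.4 to 76.0 after 1 month and 62.8 to 66.1 after 3 months. C1qb per 100 CPM of C1qa was 67.5 to 122, 102 to 103, 83.6 to 86.4 and 74.7 to 84.7 in the same groups. Among the injured groups the C1qc ratio was highest at 7 days and lowest at 3 months, with no overlap. In tissue too it was higher at 1 month (82.7 to 85.9) than at 3 months (72.9 to 74.6). C4b per 100 CPM of C1qa was 105 to 146 after 7 days, 69.7 to 120 after 1 month and 27.0 to 34.5 after 3 months in sorted cells. In tissue it was 88.7 to 106 at 1 month and 205 to 247 at 3 months, the opposite order. These ratios are given as descriptions, with no test.

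**Figure D3:**
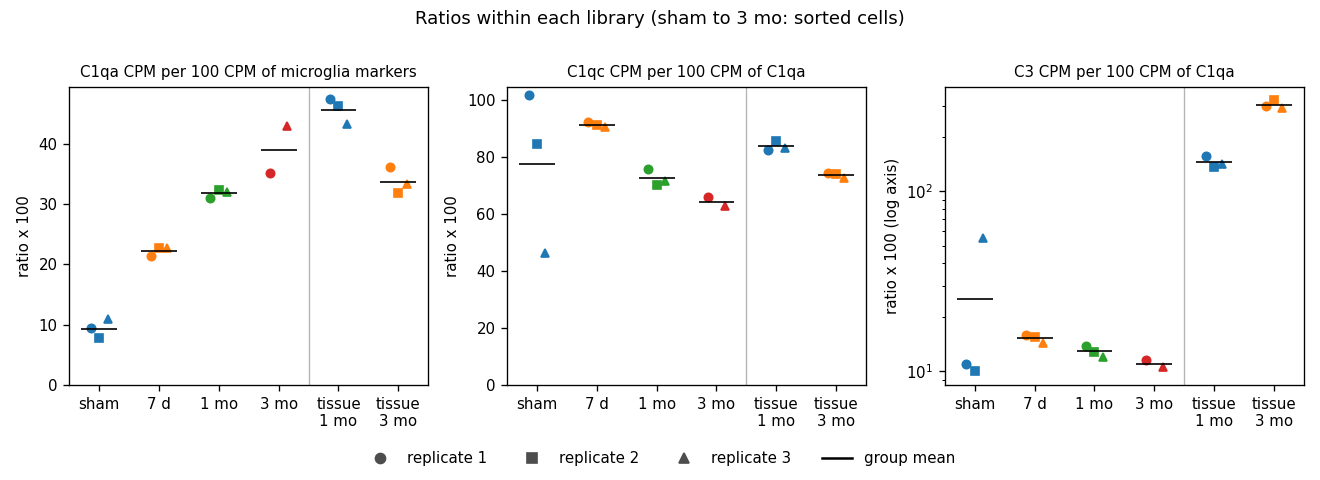
Ratios within each library, times 100: C1qa to the summed microglia markers, C1qc to C1qa, and C3 to C1qa (log axis), for the 4 sorted groups and, right of the grey line, the 2 tissue groups. Points are libraries and bars are group means. C3 is 10 to 54.8 per 100 CPM of C1qa in sorted cells and 136 to 321 in tissue.

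Across the 11 sorted libraries the chains were still the most alike of the set, by a small margin. Pearson's r of log2 CPM was 0.998 for C1qb with C1qc, 0.991 for C1qa with C1qb and 0.985 for C1qa with C1qc. The receptors came close: C5ar1 had 0.979 with C1qb and with C1qc and 0.967 with C1qa, and C3ar1 had 0.959 with C1qa. C1qa had 0.929 with C3, 0.783 with C4b and 0.714 with Serping1. Among 13763 genes with a mean of at least 5 CPM, the gene nearest to C1qb and to C1qc was Trem2 (r = 0.999 for both). Trem2 is a lipid receptor of microglia and macrophages and is itself on the list of microglia markers summed above. A ratio to a single marker of that list can therefore differ from the ratio to their sum. The nearest to C1qa was Ctss, a lysosomal protease (0.997). C3 was nearest to Cxcl10, an interferon-induced chemokine (0.996), C3ar1 to Srgn, a proteoglycan of secretory granules (0.995), and C5ar1 to Mpeg1, a pore-forming protein of macrophages (0.995). C4b was nearest to Postn, a matrix protein on the list of fibroblast markers (0.986), and Serping1 to Irgm1, an interferon-induced GTPase (0.992). All points share the 4 group levels and the depth of each library, so high values are common and carry no p.

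Levels between genes were compared per exonic length, as RPKM, the CPM divided by the kilobases covered by all exons of a gene in GENCODE. This length is not that of 1 transcript, and the order below rests on it. At 7 days C1qc (1931 exonic bases) was at 582 CPM and C1qb (1088 bases) at 652 CPM on average. In sham sorted cells C1qb (97.2 ± 100), C1qa (94.7 ± 76.1), C1qc (45.3 ± 47.8) and C4b (27.4 ± 22.2 RPKM, SD, n = 3) came before Serping1 (9.66 ± 12.4), C3 (3.60 ± 2.39), C3ar1 (2.88 ± 1.52) and C5ar1 (1.5 ± 1.31), and neighbours in this order did not differ beyond their spread. At 7 days the order was C1qa (613 ± 89.0), C1qb (599 ± 87.2), C1qc (302 ± 42.0), C4b (136 ± 3.25), C3ar1 (26.9 ± 4.12), C3 (18.9 ± 2.75), Serping1 (14.6 ± 0.42) and C5ar1 (14.5 ± 2.94 RPKM). There C1qb stood clear of C1qc, C1qc of C4b and C4b of C3ar1, while C1qa and C1qb, and Serping1 and C5ar1, were not apart. At 3 months C1qa had reached 1881 ± 576 RPKM (n = 2) and C3 41.7 ± 10.3 RPKM. In tissue at 1 month C1qa (854 ± 122), C1qb (799 ± 151) and C1qc (387 ± 62.2 RPKM) were again highest, but C3 (250 ± 34.0) came before C4b (149 ± 8.55) and Serping1 (102 ± 17), with C3ar1 (14.3 ± 2.67) and C5ar1 (5.21 ± 0.46 RPKM) last. At 3 months C3 (189 ± 19.3 RPKM) stood above C4b and C1qc in tissue.

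The rest of the complement system, a list of 45 other genes, moved in both directions in sorted cells. At 7 days 33 of them were tested, 6 rose and 6 fell. Among those that rose were the low gene Fcna, a ficolin of macrophages with 0 counts in all sham libraries and 2.25 ± 0.78 CPM at 7 days (n = 3), and Itgax (3.10 ± 0.75) and Itgb2 (2.79 ± 0.44), which form complement receptor 4. The largest falls were in Cd46 (-2.02 ± 0.51), a membrane regulator, Hc, Clu (-1.76 ± 0.27), the gene of clusterin, and Masp1 (-1.65 ± 0.30), a protease of the lectin pathway. At 1 month 6 rose and 2 fell, and at 3 months 7 rose and 2 fell. Itgax rose most among those with sham counts above the floor, from 2.17 ± 3.47 CPM in sham to 144 ± 46.1 CPM at 1 month and 267 ± 33.9 CPM at 3 months (n = 3, 3 and 2), and Itgb2 rose by 4.06 ± 0.48 at 3 months. C6, a component of the membrane attack complex, rose at both times from at most 0.0624 CPM in sham libraries, and Hc fell at both times (-2.38 ± 0.57 and -2.52 ± 0.67). Clu fell at 1 month (-1.15 ± 0.26) and Csmd3, a membrane protein with complement control domains, at 3 months (-0.91 ± 0.26). At 1 month against 7 days 5 of the 33 rose and none fell, the largest being Itgax (2.86 ± 0.71) and Vtn (1.62 ± 0.28), the gene of vitronectin, which binds the attack complex.

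In whole injured tissue the 3 C1q genes and C3ar1 fell between 1 and 3 months. C1qa was 884, 1017 and 764 CPM at 1 month and 366, 280 and 321 CPM at 3 months, a log2 change of -1.46 ± 0.13 (adjusted p = 0.0029). C1qb was 829, 1050 and 730 CPM and then 347, 261 and 277 CPM (-1.56 ± 0.16, adjusted p = 0.00315). C1qc was 731, 874 and 635 CPM and then 273, 207 and 234 CPM (-1.65 ± 0.14, adjusted p = 0.00261). No library at 3 months reached a library at 1 month for any chain. C3ar1 also fell, from 58.8, 74.1 and 51.5 CPM to 30.6, 30.5 and 29.2 CPM (-1.03 ± 0.13, adjusted p = 0.00546). Thus 4 of 8 members tested fell, where 8.01% of 19652 genes fell and 14.7% were called in either direction. The 10 microglia markers summed to 1764 to 2196 CPM at 1 month and 879 to 1011 CPM at 3 months, 8 of them fell, and their part in the C1q values was not tested. Per 100 CPM of these markers C1qa was 43.3 to 47.5 at 1 month and 31.8 to 36.2 at 3 months.

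The other 4 members tested did not pass the test in tissue. C3 was 1384, 1383 and 1081 CPM at 1 month and 1085, 897 and 938 CPM at 3 months (-0.40 ± 0.12, adjusted p = 0.0644), and the groups overlapped. C4b was 830, 902 and 809 CPM and then 749, 689 and 757 CPM (-0.21 ± 0.07, adjusted p = 0.0946). C5ar1 was 12.2, 14.6 and 13.4 CPM and then 13.6, 8.02 and 5.71 CPM (-0.56 ± 0.28, adjusted p = 0.23). Serping1 was 217, 283 and 212 CPM and then 198, 106 and 146 CPM (-0.66 ± 0.22, adjusted p = 0.0823). Replicate 1 at 3 months was the highest library of its group for 7 of the 8 members tested, all but C4b, and its neutrophil markers summed to 2895 CPM against 299 and 316 CPM in the other 2. Without it 7 members were called, C3 at -0.48 (adjusted p = 0.0177), C5ar1 at -0.96 (0.00448) and Serping1 at -0.92 (0.00531) among them. Calls over all genes also went up without it, to 5980 from 2889 in the main fit. DESeq2 on all 6 libraries called 6 members, with C3 and Serping1 added. Of 34 other complement genes tested 6 fell and 1 rose. The fallen genes with the largest changes were Colec10 (-2.18 ± 0.44), a lectin of the lectin pathway, Itgax (-1.22 ± 0.17), Cd59a (-0.81 ± 0.11), an inhibitor of the attack complex, and Itgam (-0.79 ± 0.20), a chain of complement receptor 3. The gene that rose, Fcnb, a ficolin of myeloid cells, was 0.26 to 0.35 CPM at 1 month and 13.7, 1.57 and 1.5 CPM at 3 months, highest in the library with the high neutrophil markers.

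Sorted cells and tissue were also scaled and fitted together, to set their levels side by side. The kind of sample and the table it came from cannot be told apart, and the 2 kinds share 1 estimate of spread. At 1 month, where 39.3% of 24730 genes differed, 3 of 8 members did. C3 was 106 ± 18.1 CPM in sorted cells and 1332 ± 170 CPM in tissue (SD, n = 3 each), a log2 difference of -3.65 ± 0.41 (adjusted p = 1.95e-06). Serping1 was also lower in sorted cells (58.3 ± 2.91 against 246 ± 37.4 CPM, -2.08 ± 0.62, adjusted p = 0.0127). C5ar1 was higher in them (33.8 ± 6.78 against 13.9 ± 1.10 CPM, 1.28 ± 0.41, adjusted p = 0.0205), a call lost without sorted replicate 2, tissue replicate 1 or tissue replicate 3 of this time (adjusted p from 0.0572 to 0.078). The C1q chains were at 600 to 830 CPM on average in sorted cells and 775 to 922 CPM in tissue and did not pass the test (log2 differences from -0.37 to -0.15), and neither did C4b (-0.27 ± 0.41) or C3ar1 (0.42 ± 0.30).

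At 3 months, where 37.3% of genes differed, 6 of 8 members did. The C1q chains, C3ar1 and C5ar1 were higher in sorted cells, by 2.44 ± 0.41 for C1qa (1876 ± 598 CPM, n = 2, against 345 ± 40.9 CPM, n = 3, adjusted p = 0.000179), 2.22 ± 0.51 for C1qb, 2.24 ± 0.53 for C1qc, 2.37 ± 0.33 for C3ar1 and 2.29 ± 0.45 for C5ar1. C3 was again lower in them (206 ± 53.6 against 1043 ± 90.4 CPM, -2.34 ± 0.45, adjusted p = 0.000601). C4b (-0.48 ± 0.47, adjusted p = 0.443) and Serping1 (-0.71 ± 0.68, 0.433) did not pass the test. C3 per 100 CPM of C1qa was 12 to 13.9 in sorted cells and 136 to 157 in tissue at 1 month, and 10.6 to 11.5 and 292 to 321 at 3 months. All 10 microglia markers were higher in sorted cells than in tissue at 3 months, and none differed at 1 month, and 11 of 12 astrocyte markers were lower in sorted cells at both times. The part of these markers in the member values was not tested.

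The change from 1 to 3 months itself differed between sorted cells and tissue for 4 of 8 members, where 3.89% of genes differed in either direction and 1.31% were higher in sorted cells. The difference of the log2 changes, sorted minus tissue, was 2.60 ± 0.55 for C1qa (adjusted p = 0.0183), 2.58 ± 0.69 for C1qb (0.0454), 2.61 ± 0.71 for C1qc (0.0496) and 1.95 ± 0.44 for C3ar1 (0.0235). It was 1.31 ± 0.55 for C3 (0.205), 1.01 ± 0.61 for C5ar1 (0.393), 1.37 ± 0.89 for Serping1 (0.439) and -0.22 ± 0.62 for C4b (0.94). The direction of the 4 differences held in each fit that left out 1 library, but no such fit called more than 2 of them, and none was called without sorted 1-month replicate 1, sorted 3-month replicate 3 or tissue 1-month replicate 2. In a limma voom fit with a separate weight for each kind of sample, added after the data were seen, 4 members were called. An edgeR fit of only the groups compared called the same 4 as the main fit and also C3 (1.30, adjusted p = 0.00429) and Serping1 (1.36, 0.0235). Over all genes it called 3256, against 961 in the main fit. The summed microglia markers, on this joint scale, moved the same way, from 1989 to 3148 CPM at 1 month to 4144 to 5350 CPM at 3 months in sorted cells and from 1853 to 2247 CPM to 958 to 1068 CPM in tissue.

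**Figure D4:**
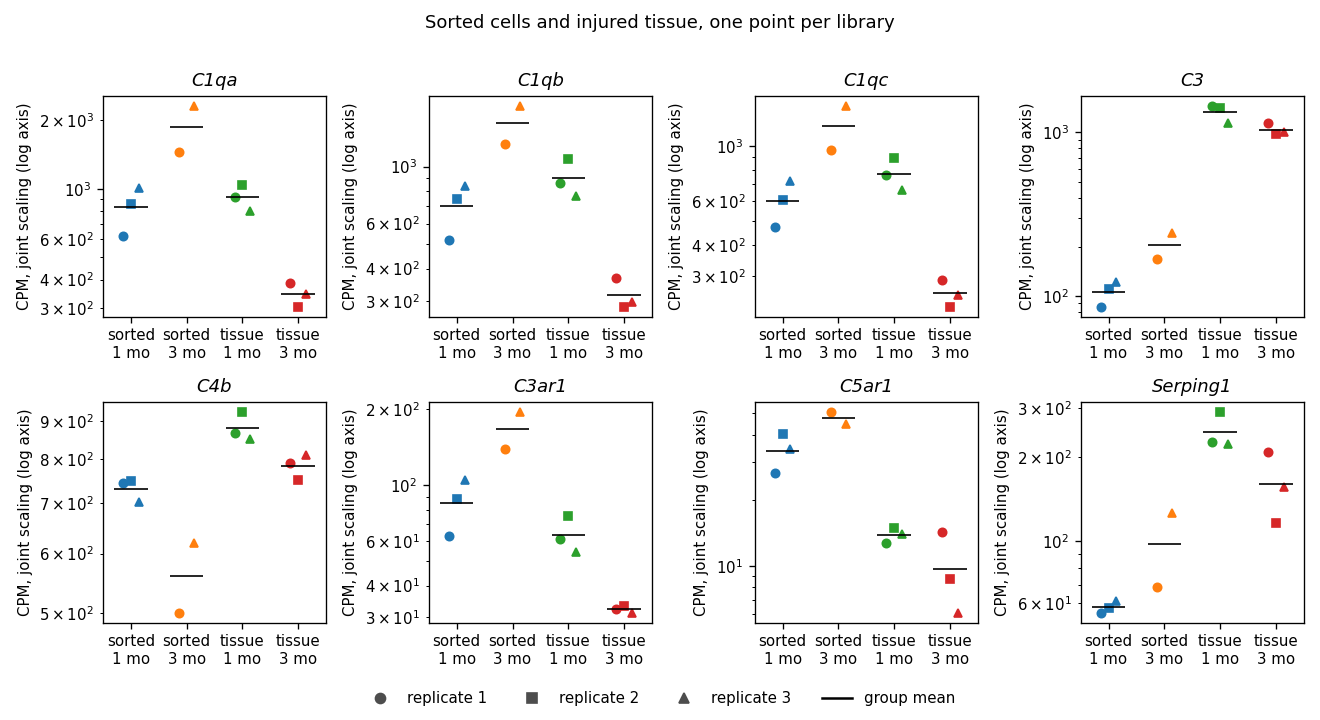
Level of 8 complement genes in sorted cells and whole tissue at 1 and 3 months after contusion, in CPM after joint scaling on log axes whose range differs between panels. Points are libraries and bars are group means. C1qa averages 830 and 1876 CPM in sorted cells and 922 and 345 CPM in tissue, while C3 is higher in every tissue library than in any sorted library.

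The cultures of the Zeb2os set had microglia shaken off, per the labels' protocols, and every member was at or below 23.2 CPM in them. C1qa was 23.2 and 12.8 CPM in the controls of the Zeb2os set and 12.9 and 10.4 CPM in the libraries labelled knockdown, and 2.59 and 0.511 CPM in the controls of the Zeb2 set and 4.97 and 1.20 CPM in its knockdown. C3 was 13.4 and 20 CPM in the Zeb2os controls and 7.60 and 7.46 CPM in the libraries labelled knockdown. C4b was 10.6 and 13.4 CPM in those controls and 3.79 and 4.19 CPM in the libraries labelled knockdown, with no overlap for either gene. The log2 changes were -1.15 ± 0.27 for C3 (adjusted p = 0.145) and -1.59 ± 0.28 for C4b (0.0675). Neither passed edgeR's test, and none of the 8 members tested did, where 0.188% of 20741 genes were called. Of the 8, 3 (C3, C4b and Serping1) had an unadjusted p under 0.05, and DESeq2 called C3 (adjusted p = 0.0128) and C4b (0.000216). All 8 log2 changes were below 0, from -1.59 to -0.21, with a median of -0.50 beside -0.01 over all genes tested. The summed astrocyte markers were 1324 and 1406 CPM in these controls and 702 and 681 CPM in the libraries labelled knockdown, and the part of this in the C3 and C4b values was not tested. The summed microglia markers were 145 to 160 CPM in all 4 libraries. Macrophage markers summed to 290 to 395 CPM in the controls and 327 to 436 CPM in the libraries labelled knockdown. Fibroblast markers, at 4072 to 4967 CPM and 4520 to 5470 CPM in the same groups, were above the astrocyte markers. The part of these cells in the member values was not tested. Among 32 other complement genes tested in this set edgeR called none.

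In the Zeb2 set the 2 libraries of a group were far apart. C3 was 76.6 and 9.41 CPM in the controls and 234 and 15.2 CPM in the knockdown, a log2 change of 1.54 ± 1.36 (adjusted p = 0.999). It was called without control replicate 1 (3.72, adjusted p = 0.0175) and with no filter on low counts (0.0193), and without knockdown replicate 1 its sign turned (-1.49). C4b was 5.11 and 4.09 CPM and then 13.4 and 2.81 CPM (0.82 ± 0.73). Replicate 1 was the higher library in both groups for each of the 8 members tested. None was called by edgeR or DESeq2, no member had an unadjusted p under 0.05, and edgeR called 0 of 17600 genes (0%), with 681 at an unadjusted p under 0.05 and 32 called by DESeq2. The 24 other complement genes tested had no call either. Fibroblast markers summed to 3658 to 8263 CPM in these controls and 3069 to 3749 CPM in the knockdown. Astrocyte markers summed to 901 to 1407 CPM and 1217 to 1305 CPM. The 2 sets were counted in separate tables and scaled separately, so their levels are not compared.

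**Figure D5:**
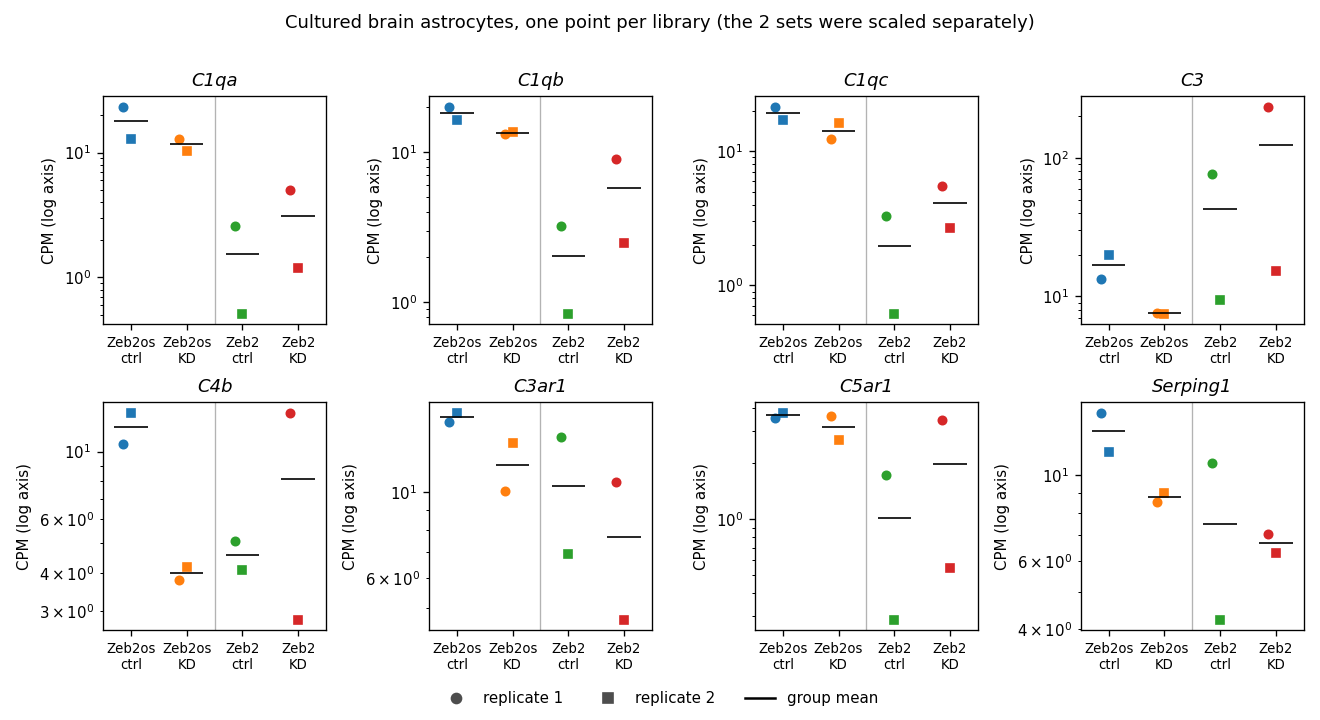
Level of 8 complement genes in cultured astrocytes, in CPM on log axes, for the control and knockdown libraries of the Zeb2os set (left of the grey line) and the Zeb2 set (right). Points are libraries and bars are group means. C4b is 10.6 and 13.4 CPM in the Zeb2os controls and 3.79 and 4.19 CPM in the libraries labelled Zeb2os knockdown.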

How the data were processed

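The 4 deposited tables held whole-number read counts per gene, not normalized by the authors (from the values). The tools in the submitters' processing notes are Cufflinks 2.2.1, DESeq2, FastQC and TopHat2 2.1.0, with build mm10 and without roles. What program, annotation and strand setting made the counts is not given in the sources used here. A kit that marks strand was used, per the labels' protocols. Each table was fitted in edgeR 4.0.16 (R 4.3.3) after its filter at a minimum count of 10, with TMM scaling and a quasi-likelihood F test; sorted and tissue tables were also fitted together over 43468 shared genes. SE is the log2 change divided by the root of F. RPKM used GENCODE vM21 exonic lengths. The similarity search used log2 CPM with a prior count of 2. Of the identifiers for the Zeb2 cultures 33, with 0.00161% of counts, matched no gene and were left out. The fits were also run on simulated counts with known changes and the same spread in all groups of a table. That checks the calculation and cannot speak to spread that differs between groups. The members, the 45 other complement genes and the 12 marker lists were chosen with earlier results of these data known. All members are named in every comparison; of other complement genes up to 4 called in each direction, except for 1 that is not reported here, and of genes like a member the nearest of 3 listed. Alternatives were DESeq2 1.42.0, RLE scaling, no filter, a replicate block, only the groups compared, C4a added to C4b with Gm20547 added to Cfb, each library left out, and limma 3.58.1 voom. Same-numbered libraries did not deviate together in sorted cells (r from -0.0436 to 0.0809) or in tissue (from -0.274 to -0.0111). In the Zeb2os set r was -0.0261 for the same number and 0.0261 for different numbers. In the Zeb2 set r was 0.391 for the same number and -0.391 for different numbers. With 2 libraries per group these are 1 value with opposite signs in each set, so a pairing is not excluded in either. The labels pair no samples, and the numbers were not taken as pairs in any main fit.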

Additional observations from a re-analysis of the deposited data

Results flagged for a closer look

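The change from 1 to 3 months after contusion differed between sorted cells and whole tissue, by edgeR's test of the difference itself, for 4 complement genes. The difference of log2 changes, sorted minus tissue, was 2.60 for C1qa (adjusted p = 0.0183), 2.58 for C1qb (0.0454), 2.61 for C1qc (0.0496) and 1.95 for C3ar1 (0.0235). Both sorted libraries at 3 months were above all 3 at 1 month for each of these genes, and all 3 tissue libraries at 3 months were below all 3 at 1 month. The calls depended on single libraries: of the 11 fits that each left out 1 library, C1qb and C1qc lost the call in 11, C3ar1 in 6 and C1qa in 3. The summed microglia markers moved the same way, from 1989 to 3148 CPM at 1 month to 4144 to 5350 CPM at 3 months in sorted cells and from 1853 to 2247 CPM to 958 to 1068 CPM in tissue, and their part in these results was not tested. The sorted change alone did not pass its own test for any of the 4, and the kind of sample cannot be told apart from the table it was counted in.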

How the results depend on the processing

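Against sham 7 members were called at 7 days, 1 month and 3 months, and over the alternatives 7 or 8, 7 or 8 and 6 to 8. Between sorted cells and tissue 3 were called at 1 month and 6 at 3 months, and over the alternatives 2 to 4 and 6 or 7. At 1 month against 7 days (0 called) no low-count filter gave 1 and the groups compared alone gave 1, Serping1 each time. At 3 months against 7 days (1 called) they gave 5 and 6, the replicate block 0, and leaving out each library 0 to 0. At 3 months against 1 month (0 called) they gave 5 and 6. In tissue (4 called) leaving out a library gave 4 to 7. For the libraries labelled Zeb2os knockdown (0 called) DESeq2, no filter and the replicate block gave 2 each, and leaving out a library 0 to 2. For Zeb2 (0 called) no filter gave 1, and leaving out a library 0 to 1. For the sorted and tissue difference of change (4 called) the replicate block gave 2, and leaving out a library 0 to 2. The groups compared alone kept these 4 and added C3 and Serping1. The cause was not tested. The replicate number pairs no samples by the labels; the block also moved the difference of change to an adjusted p of 0.0719 for C1qb and 0.0777 for C1qc, C1qa at 3 months against 7 days to an adjusted p of 0.059, and Serping1 against sham to 0.0233 at 1 month and 0.0105 at 3 months.

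Signs reversed only on leaving out a library, and no reversed value passed the test. At 1 month against 7 days these fits gave C1qb -0.018 (without 1-month replicate 3) to 0.32, C1qc -0.085 (without the same library; -0.022 without 7-day replicate 1) to 0.22 and C5ar1 -0.26 to 0.078 (without 7-day replicate 2; 0.036 without 1-month replicate 1). For Zeb2 they gave, lowest without knockdown replicate 1, C1qa -0.36 to 2.59, C3 -1.49 to 3.72, C4b -0.70 to 1.53 and C5ar1 -0.88 to 2.79. They gave C3ar1 -1.15 to 0.14 and Serping1 -0.68 to 0.65, highest without control replicate 1 (C3ar1 0.021 without knockdown replicate 2).

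The number of genes called over the whole table, behind each percentage given, ranged over the alternatives from 2867 to 5512 at 7 days against sham (4440 reported), 1727 to 4049 at 1 month (2927) and 885 to 4190 at 3 months (2844). It ranged from 122 to 3560 at 1 month against 7 days (633), 408 to 3763 at 3 months against 7 days (1470), 7 to 1277 at 3 months against 1 month (94) and 305 to 5980 in tissue (2889). It ranged from 20 to 4354 for Zeb2os (39), 0 to 811 for Zeb2 (0), 7992 to 12326 for sorted against tissue at 1 month (9718), 6643 to 10866 at 3 months (9224) and 131 to 3256 for the difference of change (961). Few libraries, with a common coefficient of variation of 0.63 in sorted cells and 0.137 in tissue, limit what the tests can call.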
